A study of Caenorhabditis elegans with 6 samples.

Results

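The early endosomal sorting complexes required for transport (ESCRT) of Caenorhabditis elegans comprise ESCRT-0, ESCRT-I and ESCRT-II. The 9 genes that encode them in the deposited table were taken by name: hgrs-1 and stam-1 for ESCRT-0, tsg-101, vps-28, vps-37 and mvb-12 for ESCRT-I, and vps-22, vps-25 and vps-36 for ESCRT-II. All 9 were found among the 46739 features of the table, and all 9 passed the filter of 1 RPKM or more in at least 3 libraries that left 13833 features for testing. None came near that filter, the lowest value being 14.3 RPKM, for mvb-12 in an empty vector library. The set was selected on the RPKM values of these same libraries, in which ESCRT genes had been seen to differ between the groups, so the values below describe these genes and are not independent evidence for their direction.

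The libraries came from whole L4 larvae of the wild-type strain N2, kept at 20 °C on NGM plates with IPTG, carbenicillin and HT115 bacteria as food. In 3 libraries the worms had eaten, over their whole development, bacteria that make double-stranded RNA against rab-11.1 (rab-11.1 RNAi), and in the other 3 bacteria carrying only the empty vector. The product of rab-11.1 is a small GTPase that works on recycling endosomes, and the comparison asks how transcripts differ once it is targeted by feeding. In RNA from whole animals, fewer cells of a type and less RNA per cell cannot be told apart.

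Membrane proteins taken up from the cell surface reach the early endosome, from where they are either returned to the surface through recycling endosomes or passed to the lysosome. Proteins tagged with ubiquitin take the second route. ESCRT-0 gathers them on endosomal membrane rich in phosphatidylinositol 3-phosphate, ESCRT-I and ESCRT-II take them on, and ESCRT-III with the ATPase VPS4 pinches them into vesicles inside the endosome, which is then called a multivesicular body. Loss of these steps in yeast, flies and worms leaves cargo in enlarged endosomes.

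The target was read in each library first. The gene rab-11.1 stood at 151, 138 and 633 RPKM (reads per kilobase of feature, scaled to library depth) in the rab-11.1 RNAi libraries, against 411, 398 and 409 RPKM in the empty vector libraries. The library labelled as rab-11.1 RNAi replicate 3 does not show the loss of the target that its label implies, and it is part of the rab-11.1 RNAi group in all values below. The group difference in rab-11.1 did not pass (log2 fold change -0.78 on the log2(RPKM + 1) scale used for all fits, SE 0.55, limma adjusted p = 0.415), and it passed without that library (-1.49, adjusted p = 0.00557). Reads from the bacterial RNA, if any, are not separated in the table. The libraries held 22946375 to 25107994 reads after rab-11.1 RNAi and 27190567 to 30183162 with the empty vector, as recovered from the steps between the values, and the file headers give all libraries the same run and lane string.

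Of the 9 early ESCRT genes, 7 rose after rab-11.1 RNAi, 0 fell and 2 (vps-25 and vps-36) did not pass the call used here, a limma adjusted p under 0.05 over all tested features. The same rule called 7.93% of all tested features higher and 1.07% lower. As the genes were picked with this comparison known, nothing is read from the excess. In 8 of the 9 genes the lowest rab-11.1 RNAi library lay above the highest empty vector library, which held for 27.4% of all tested features; the opposite separation held for 0 of the 9 and for 6.53% of all tested features. The median log2 fold change was 0.42 over the members and 0.09 over all tested features. Summed over the 9 genes, the level was 395, 460 and 373 RPKM in the rab-11.1 RNAi libraries, against 276, 271 and 264 RPKM in the empty vector libraries. The increases were uneven, running from 1.09-fold for vps-36 to 2.48-fold for vps-28.

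**Figure D1:**
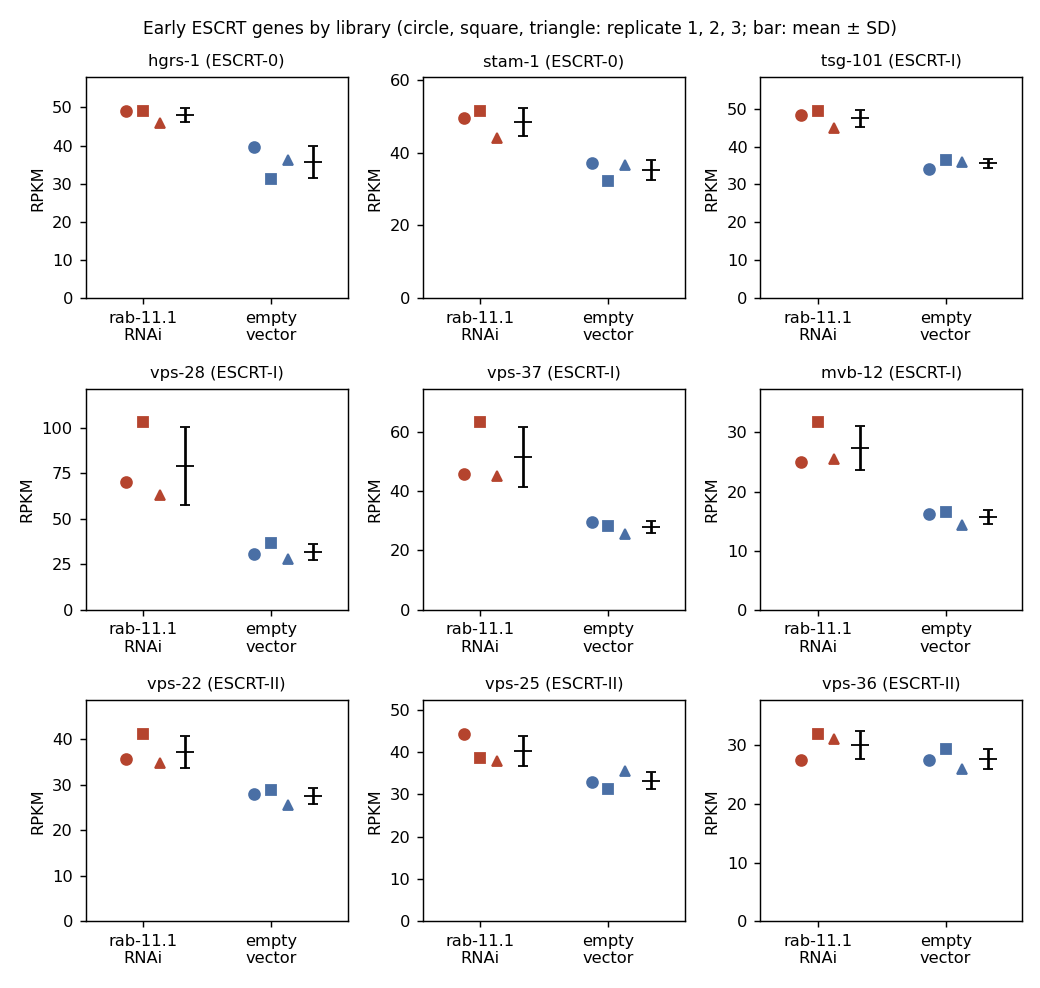
RPKM of each early ESCRT gene in every library, with rab-11.1 RNAi in red at the left and empty vector in blue at the right of each panel; symbols mark replicates 1 to 3, the black bar the mean ± SD (n = 3), and each axis starts at 0. The groups are apart in 8 of the 9 genes and overlap in vps-36, and vps-28 shows the highest fold, 2.48.

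ESCRT-0 is the complex that first binds ubiquitin-tagged cargo. The gene hgrs-1 (WBGene00004101, WBcel235 chromosome IV, 8201374 to 8206048, minus strand) encodes the worm counterpart of mammalian Hrs, whose zinc finger docks on phosphatidylinositol 3-phosphate. It stood at 49.0, 49.1 and 45.99 RPKM in the rab-11.1 RNAi libraries, against 39.7, 31.3 and 36.1 RPKM in the empty vector libraries. All rab-11.1 RNAi libraries were above all empty vector libraries, and the spread was wider with the empty vector (SD 4.21) than after rab-11.1 RNAi (SD 1.76). The fold of the means was 1.35 (log2 fold change 0.42, SE 0.10).

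Its partner stam-1 (WBGene00004109, chromosome I, 5902085 to 5904695, minus strand) encodes the second ubiquitin-binding subunit of ESCRT-0. It stood at 49.6, 51.5 and 44.1 RPKM under rab-11.1 RNAi, against 37.1, 32.103 and 36.5 RPKM with the empty vector. The groups did not overlap, and the fold of the means was 1.37 (log2 fold change 0.45, SE 0.09). The 2 subunits kept close to each other in every library, at levels per kilobase that rest on lengths set by the authors. This was not particular to ESCRT-0. The means of the ESCRT-I gene tsg-101 were 47.5 RPKM under rab-11.1 RNAi and 35.6 RPKM with the empty vector, beside 48.4 and 35.2 RPKM for stam-1. The level of hgrs-1 over that of stam-1 was 0.989, 0.954 and 1.04 in the rab-11.1 RNAi libraries and 1.07, 0.975 and 0.989 in the empty vector libraries. Annotated exons of stam-1 overlap those of tyr-4 on the opposite strand over 31 bases, and the sources do not state whether reads were counted by strand. The values of tyr-4 were 73.6, 133 and 77.5 RPKM under rab-11.1 RNAi, against 40.3, 64.5 and 48.8 RPKM with the empty vector. The groups of tyr-4 did not overlap, and its log2 fold change of 0.85 (SE 0.26), above that of stam-1, did not pass (limma adjusted p = 0.0961).

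ESCRT-I is a rod-shaped complex of 4 subunits that receives cargo from ESCRT-0, and its genes held both the highest and one of the smaller increases that passed. The gene tsg-101 (WBGene00015658, chromosome IV, 3509631 to 3514567, minus strand) encodes the subunit whose UEV domain binds ubiquitin and the Hrs protein. It stood at 48.2, 49.4 and 45.03 RPKM under rab-11.1 RNAi, against 34.2, 36.5 and 35.9 RPKM with the empty vector. The mean was 47.5 ± 2.25 RPKM under rab-11.1 RNAi and 35.6 ± 1.19 RPKM with the empty vector (SD, n = 3 each), and the groups did not overlap. The fold was 1.34 (log2 fold change 0.41, SE 0.07), close to those of hgrs-1 and stam-1.

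The gene vps-28 (WBGene00013598, chromosome I, 13586037 to 13588831, minus strand) encodes the subunit that links ESCRT-I to ESCRT-II. It stood at 70.2, 103 and 63.3 RPKM in the rab-11.1 RNAi libraries, against 30.7, 36.6 and 28.2 RPKM in the empty vector libraries. The lowest rab-11.1 RNAi library was well above the highest empty vector library, and replicate 2 was the highest of either group. The mean was 78.9 ± 21.4 RPKM under rab-11.1 RNAi and 31.8 ± 4.3 RPKM with the empty vector (SD, n = 3 each), a fold of 2.48 (log2 fold change 1.26, SE 0.19). This change lay above that of 97.9% of all tested features. Of the 2 annotated transcripts of vps-28, 1 is noncoding, and the table gives the gene as a whole, so the transcripts are not told apart.

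The gene vps-37 (WBGene00016990, chromosome V, 5592700 to 5593612, plus strand) encodes a subunit of the stalk of ESCRT-I. It stood at 45.8, 63.1 and 45.2 RPKM under rab-11.1 RNAi, against 29.5, 28.3 and 25.6 RPKM with the empty vector. Again replicate 2 was the highest, while the other rab-11.1 RNAi libraries lay close together and clear of all empty vector libraries. The fold was 1.85 (log2 fold change 0.85, SE 0.14).

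The gene mvb-12 (WBGene00015508, chromosome IV, 7830525 to 7832435, plus strand) encodes the subunit that holds the other ESCRT-I proteins together in yeast and was the lowest of the 9 genes in both groups. It stood at 24.99, 31.7 and 25.5 RPKM under rab-11.1 RNAi, against 16.2, 16.5 and 14.3 RPKM with the empty vector. The groups did not overlap, and the fold was 1.75 (log2 fold change 0.76, SE 0.12). Its annotated exons overlap those of erp-44.2 on the opposite strand over 92 bases, and erp-44.2 had a log2 fold change of 0.39 and did not pass (limma adjusted p = 0.114).

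The levels of the other ESCRT-I genes were also set against that of tsg-101 within each library. The level of vps-28 over that of tsg-101 was 1.46, 2.09 and 1.41 after rab-11.1 RNAi, against 0.895, 1.0 and 0.787 with the empty vector. For vps-37 over tsg-101 the ratio was 0.95, 1.28 and 1.0 under rab-11.1 RNAi, against 0.862, 0.773 and 0.714 with the empty vector. For mvb-12 over tsg-101 it was 0.518, 0.643 and 0.566 under rab-11.1 RNAi, against 0.473, 0.45 and 0.399 with the empty vector. In each of these ratios the rab-11.1 RNAi libraries lay above all empty vector libraries. The fold of tsg-101, 1.34, was the lowest of the 4, so higher ratios after rab-11.1 RNAi followed from its choice as the base. The ratios share this base and are not separate observations. The ratios do not depend on the scaling of a library. They describe transcripts, not the proteins, and were not tested.

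ESCRT-II is a Y-shaped complex that nucleates ESCRT-III on the membrane, and its genes had the lowest median change of the 3 complexes. The gene vps-22 (WBGene00016167, chromosome III, 4960338 to 4962493, minus strand) encodes a core subunit at the base of the Y. It stood at 35.6, 41.1 and 34.7 RPKM under rab-11.1 RNAi, against 28.02, 28.9 and 25.5 RPKM with the empty vector. The groups did not overlap, and the fold was 1.35 (log2 fold change 0.42, SE 0.09). Its exons overlap those of C27F2.9 on the same strand over 332 bases, and reads there cannot be assigned to either gene. C27F2.9 itself had a log2 fold change of 0.14 and did not pass (limma adjusted p = 0.509).

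The gene vps-25 (WBGene00012193, chromosome I, 12733287 to 12741275, minus strand) encodes the subunit that contacts the ESCRT-III protein VPS-20. It stood at 44.3, 38.7 and 38.0 RPKM under rab-11.1 RNAi, against 33.02, 31.4 and 35.6 RPKM with the empty vector. The groups did not overlap, although the gap between the nearest libraries was small, and the log2 fold change of 0.27 (SE 0.09) did not pass. It was the only one of the 9 genes with its highest value in rab-11.1 RNAi replicate 1.

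The gene vps-36 (WBGene00008919, chromosome V, 10958931 to 10960669, minus strand) encodes the subunit that binds membrane lipid and, in yeast and mammals, ubiquitin and VPS28. It stood at 27.4, 31.9 and 31.0 RPKM under rab-11.1 RNAi, against 27.5, 29.4 and 26.0 RPKM with the empty vector. The groups overlapped, and the log2 fold change of 0.12 (SE 0.09) did not pass and was close to the median of all tested features. Under both other scalings it was at or just below 0 (-0.002 and -0.018). The level of vps-36 over that of vps-22 was 0.77, 0.776 and 0.892 after rab-11.1 RNAi, against 0.982, 1.02 and 1.02 with the empty vector.

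**Figure D2:**
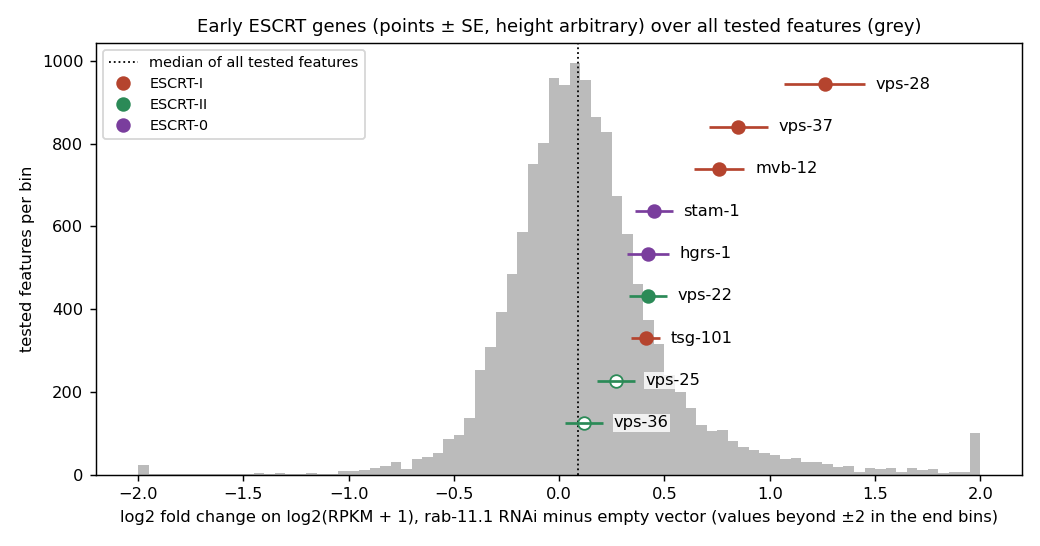
Log2 fold change (rab-11.1 RNAi minus empty vector) of the 9 early ESCRT genes as points ± SE, coloured by complex and filled where the call was passed, over the distribution of all 13833 tested features in grey; the height of a point carries no value. The ESCRT-I genes vps-28, vps-37 and mvb-12 lie at 1.26, 0.85 and 0.76, and vps-36 at 0.12 lies next to the median of all tested features, 0.09.

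By complex, 2 of 2 ESCRT-0 genes, 4 of 4 ESCRT-I genes and 1 of 3 ESCRT-II genes were called higher, with median log2 fold changes of 0.44, 0.81 and 0.27. The summed level of ESCRT-I was 189, 247 and 179 RPKM under rab-11.1 RNAi, against 111, 118 and 104 RPKM with the empty vector. For ESCRT-II the sums were 107, 112 and 104 RPKM under rab-11.1 RNAi, against 88.5, 89.7 and 87.0 RPKM with the empty vector. For ESCRT-0 they were 98.6, 100.5 and 90.1 RPKM under rab-11.1 RNAi, against 76.7, 63.4 and 72.6 RPKM with the empty vector. The sums of no complex overlapped between the groups. The difference between complexes was not tested.

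The order of the levels differed between the groups. After rab-11.1 RNAi vps-28 ranked 1 of 9, at 78.9 RPKM, followed by vps-37 (51.4 ± 10.2), stam-1 (48.4 ± 3.82), hgrs-1 (48.0 ± 1.76), tsg-101 (47.5 ± 2.25), vps-25 (40.3 ± 3.47), vps-22 (37.1 ± 3.47), vps-36 (30.1 ± 2.38) and mvb-12 (27.4 ± 3.75). From vps-37 to tsg-101 the neighbours in this order differed by less than their SDs. With the empty vector hgrs-1 (35.7 ± 4.21), tsg-101 (35.6 ± 1.19) and stam-1 (35.2 ± 2.71) led, followed by vps-25 (33.3 ± 2.1), vps-28 at rank 5 (31.8 ± 4.3), vps-37 (27.8 ± 1.97), vps-36 (27.6 ± 1.73), vps-22 (27.5 ± 1.78) and mvb-12 (15.7 ± 1.17). In the empty vector libraries the first 8 neighbours differed by no more than the larger of their SDs, and mvb-12 stood apart, with its highest library at 16.5 RPKM. These levels are per kilobase and rest on lengths set by the authors. The highest member stood 2.81, 3.26 and 2.48 times above the lowest in the rab-11.1 RNAi libraries, against 2.45, 2.22 and 2.55 times in the empty vector libraries.

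Within the rab-11.1 RNAi group the libraries differed in a similar way for most of the 9 genes. Replicate 2 held the highest value of 8 of the 9 genes, and the library labelled as replicate 3 the lowest of 7. Of the lists given below, that library was also the lowest of the group for 7 of 12 ESCRT-III list genes and 10 of 14 early endosome genes. It was the lowest for 6 of 11 receptor genes and 4 of 11 ubiquitin list genes. Among tissue markers this held for 7 of 10 neuronal, 5 of 9 epidermal, 2 of 9 body wall muscle and 2 of 6 pharyngeal markers. It held for 1 of 10 intestinal markers, 0 of 16 germline markers and 0 of 6 yolk protein genes. The shares over all tested features were not computed. Replicate 2 was also the library of each group with the lowest summed germline markers, summed yolk protein genes and col-19, whose values are given with the tissue markers. In the empty vector group replicate 2 was not the highest for the early ESCRT genes, which summed to 276, 271 and 264 RPKM in replicates 1, 2 and 3. The coefficient of variation over the rab-11.1 RNAi libraries was 27.1% for vps-28, 19.8% for vps-37 and 13.7% for mvb-12, against 13.5%, 7.1% and 7.49% over the empty vector libraries. The values rested on 405 to 3103 reads per gene and library, for which counting alone gives a relative SD of at most 4.97%. The library labelled as replicate 3, in which rab-11.1 was not low, stood above every empty vector library in 9 of 9 genes. The share of all tested features for which this held was not computed, so nothing is read from this count. Set against the empty vector library with the same replicate number, vps-28 was 2.29, 2.82 and 2.24 times as high in replicates 1, 2 and 3. The same ratios were 1.55, 2.23 and 1.76 for vps-37, and 0.996, 1.08 and 1.19 for vps-36.

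The calls depended on single libraries and on the scaling. Without empty vector replicate 1 or empty vector replicate 3, 0 of the 9 genes were called, and 1097 calls of higher features among all those tested became 320 and 264. The log2 fold changes in those fits were 0.08 to 1.24 over the 9 genes without empty vector replicate 1 or 3. Without the library labelled as rab-11.1 RNAi replicate 3 the count was 5, with hgrs-1 and vps-22 no longer called. Without rab-11.1 RNAi replicates 1 and 2 it was 3 and 4, and without empty vector replicate 2 it was 4. The calls of vps-28, vps-37 and mvb-12 held in 13 of 15 alternative settings each, failing without empty vector replicate 1 or 3. With median-of-ratios scaling or quantile normalization, which moved the median of all tested features to -0.02 and -0.04, those 3 stayed called and hgrs-1, stam-1, tsg-101 and vps-22 did not pass.

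**Figure D3:**
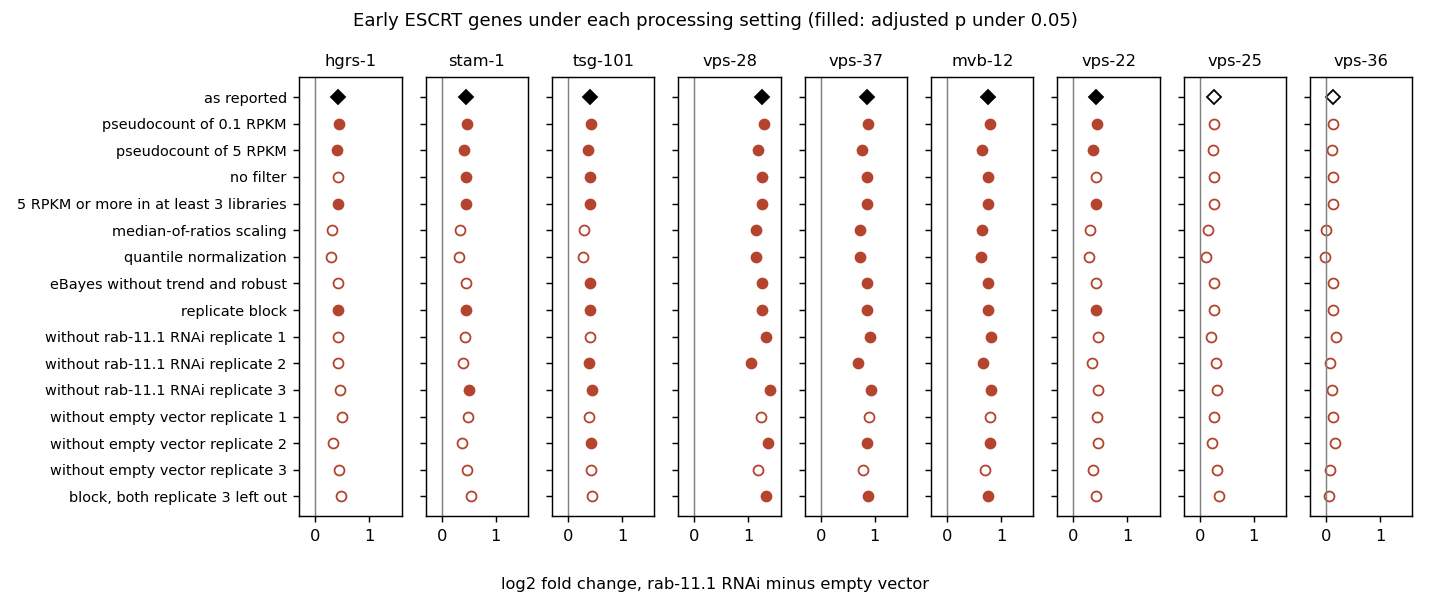
Log2 fold change (rab-11.1 RNAi minus empty vector) of each early ESCRT gene under the fit as reported (black diamond) and 15 alternative settings (red circles), filled where the adjusted p was under 0.05. The values of vps-28 ran from 1.05 to 1.4, and those of vps-36 from -0.018 to 0.18, crossing 0 under both other scalings.

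Downstream of these complexes act ESCRT-III, VPS4 and the proteins with a Bro1 domain. Of 12 genes listed for them 11 were tested: 8 rose, 0 fell and 3 missed the threshold (median log2 fold change 0.78). The same rule called 7.93% of all tested features higher, and this list too was chosen with results of these data known. At an unadjusted limma p under 0.05, 10 were higher and 0 lower. The share of all tested features at that unadjusted threshold was not computed, so nothing is read from this count. One listed gene, ist-1, encodes an insulin receptor substrate homologue in the worm and no ESCRT protein, and without it 8 of 10 rose. The gene alx-1, for the ALIX homologue, stood at 117 ± 18.8 RPKM under rab-11.1 RNAi and 47.2 ± 2.57 RPKM with the empty vector (SD, n = 3 each; log2 fold change 1.28, limma adjusted p = 0.0028). The ESCRT-III genes did-2 (2.61-fold), vps-60 (2.28-fold) and vps-24 (1.74-fold) also rose, with limma adjusted p values of 0.00635, 0.00442 and 0.00588. These 4 genes were named for the smallest p values of the list. Their calls held in all 15 alternative settings, which reuse the same libraries and are not independent evidence. The count for the list was 5 without empty vector replicate 3. In contrast vps-20, the ESCRT-III gene whose protein meets VPS-25, stood at 58.4 ± 2.96 RPKM under rab-11.1 RNAi and 49.96 ± 2.44 RPKM with the empty vector and did not pass (limma adjusted p = 0.118).

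Of 14 genes for the early endosome and its phosphatidylinositol 3-phosphate, 4 rose, 0 fell and 10 did not pass (median log2 fold change 0.31). At an unadjusted limma p under 0.05, 11 were higher and 0 lower, again without a computed share of all tested features to set beside it. With the replicate number as a block 8 rose, in a fit that called 16.5% of all tested features higher. With either other scaling 1 rose, and without rab-11.1 RNAi replicate 1 or empty vector replicate 1 or 3 the count was 0. The lipid kinase gene vps-34, whose lipid product recruits ESCRT-0, rose 1.48-fold (log2 fold change 0.54, SE 0.09, limma adjusted p = 0.0157). Its partner bec-1 rose 1.63-fold, the lipid kinase gene ppk-3 1.4-fold and the sorting nexin gene snx-1 1.38-fold (limma adjusted p = 0.0225, 0.0246 and 0.0258). All 4 calls ended without rab-11.1 RNAi replicate 1 and without empty vector replicate 1 or 3 (adjusted p up to 0.119), and those of bec-1, ppk-3 and snx-1 also under both other scalings. The call of ppk-3 ended too without rab-11.1 RNAi replicate 2 (adjusted p = 0.0633) and without the library labelled as rab-11.1 RNAi replicate 3 (adjusted p = 0.0601).

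Of 11 genes listed for ubiquitin on cargo, 4 rose, 1 fell and 6 did not pass (median log2 fold change 0.20). At an unadjusted limma p under 0.05, 5 were higher and 1 lower, with the share of all tested features not computed. The polyubiquitin gene ubq-1 stood at 390.0 ± 20.6 RPKM under rab-11.1 RNAi and 287 ± 7.8 RPKM with the empty vector (limma adjusted p = 0.016), usp-50, for a ubiquitin-specific protease, rose 1.6-fold, and the ubiquitin-activating enzyme gene uba-1 rose 1.33-fold (limma adjusted p = 0.0256 and 0.0345). The gene for the ubiquitin ligase WWP-1 rose 1.28-fold (limma adjusted p = 0.0398). The gene that fell, cbl-1, encodes a cystathionine lyase of sulphur amino acid metabolism and belongs to no ubiquitin pathway, and without it 4 of 10 rose. It stood at 17.3 ± 1.69 RPKM under rab-11.1 RNAi and 37.01 ± 2.12 RPKM with the empty vector. The worm homologue of the ligase CBL is sli-1, at 17.3 ± 3.96 RPKM under rab-11.1 RNAi and 10.8 ± 0.124 RPKM with the empty vector, which did not pass (limma adjusted p = 0.0573). The number of genes of this list called higher was 0 or 1 under both other scalings and without rab-11.1 RNAi replicate 1 or empty vector replicate 1 or 3. Without empty vector replicate 2, the library labelled as rab-11.1 RNAi replicate 3 or its replicate 2 it was 2.

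**Figure D4:**
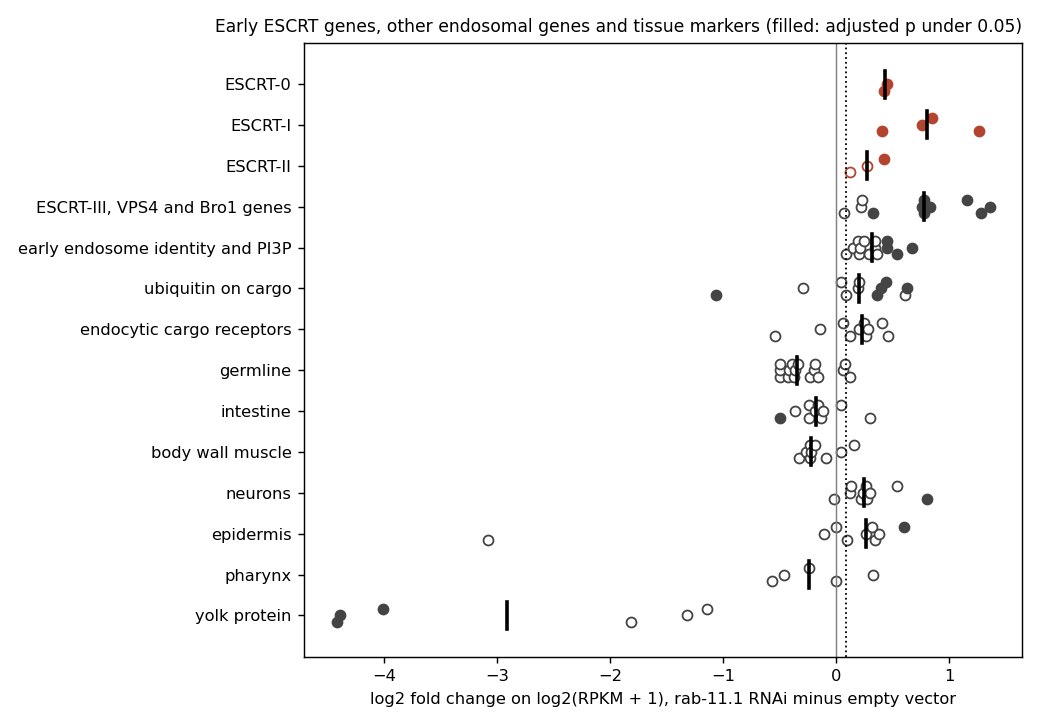
Log2 fold change (rab-11.1 RNAi minus empty vector) of each tested gene of the early ESCRT complexes (red), of other endosomal lists and of tissue marker lists (grey), 1 row per list; filled points passed an adjusted p of 0.05, thick bars are list medians and the dotted line is the median of all tested features, 0.09. The medians run from 0.81 for ESCRT-I and 0.78 for the ESCRT-III list to -2.91 for yolk proteins.

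Markers of the tissues in a whole worm were read beside these genes, and their part in the results was not tested. No marker was at 0 in all libraries. The 16 germline markers summed to 763, 501 and 837 RPKM under rab-11.1 RNAi, against 1060.0, 624 and 978 RPKM with the empty vector, and replicate 2 was the lowest library of each group. It held the lowest value of 15 of the 16 markers under rab-11.1 RNAi and of 16 with the empty vector. By limma 0 of the 16 were called, and 0 had an unadjusted p under 0.05 (median log2 fold change -0.35). The share of all tested features at that unadjusted threshold was not computed. With the replicate block 9 were called lower, among them gld-1 and cgh-1 (both -0.50), as were 618 of all 13833 tested features.

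The summed level of the yolk protein genes and the level of the adult collagen gene col-19 were also lowest in replicate 2 of each group. The 6 yolk protein genes summed to 176, 171 and 268 RPKM under rab-11.1 RNAi, against 1190.0, 252 and 1110.0 RPKM with the empty vector, and 3 were called lower (vit-3, vit-4, vit-5). That count was 0 without rab-11.1 RNAi replicate 1 or empty vector replicate 1 or 3, and 6 without empty vector replicate 2. The gene col-19, on the epidermal list, stood at 17.2, 3.24 and 48.6 RPKM under rab-11.1 RNAi, against 244, 43.6 and 211 RPKM with the empty vector. The groups overlapped and it did not pass (0.139-fold, log2 fold change -3.08, limma adjusted p = 0.107), but it did with the replicate block (adjusted p = 0.00358).

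Of 10 intestinal markers 0 were called higher and vha-6 was called lower (summed level 4320 to 5580 RPKM under rab-11.1 RNAi, 5170 to 6270 RPKM with the empty vector), and elt-2 was called higher with the block. Of 9 body wall muscle markers 0 were called by limma (6070 to 6220.0 RPKM under rab-11.1 RNAi, 6370 to 6580 RPKM with the empty vector), with 4 lower at an unadjusted p under 0.05. With median-of-ratios scaling 2 muscle markers were called lower (myo-3 and unc-54), and with the block 1 (unc-54). Of 10 neuronal markers snb-1 was called higher (439 to 617 RPKM under rab-11.1 RNAi, 333 to 394 RPKM with the empty vector), and with the block 3 were. Of 9 epidermal markers elt-3 was called higher (2080 to 2530 RPKM under rab-11.1 RNAi, 2210 to 2560 RPKM with the empty vector), and with the block 2 were. Of 5 pharyngeal markers tested 0 were called by limma (149 to 170 RPKM under rab-11.1 RNAi, 179 to 208 RPKM with the empty vector), with 1 higher and 2 lower at an unadjusted p under 0.05, and with the block myo-2 was called lower. The single calls of vha-6, snb-1 and elt-3 ended in several of the settings that left out a library, as did those of snb-1 and elt-3 under both other scalings. The summed levels of the groups did not overlap for body wall muscle (lower under rab-11.1 RNAi), neurons (higher) and pharynx (lower). The largest part of the neuronal sum was snb-1, at 188, 294 and 186 RPKM under rab-11.1 RNAi, against 127, 127 and 119 RPKM with the empty vector. Taken singly, the groups were also apart for unc-64 and aex-3. They overlapped for ric-4, unc-13, unc-10, egl-3, egl-21, ida-1 and sng-1. At an unadjusted limma p under 0.05, 1 intestinal, 2 neuronal and 2 epidermal markers were higher. Lower at that threshold were 2 intestinal, 0 neuronal and 1 epidermal markers and 5 of the 6 yolk protein genes. For none of these unadjusted counts was the share of all tested features computed. With the block 16.5% of all tested features were called higher.

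Among 9546 protein-coding genes outside the lists with a mean of 5 RPKM or more, the library profiles nearest to the mean profile of the 9 early ESCRT genes were those of egal-1, tads-1, xrep-4 (listed as F46F11.6), cap-2 and aap-1. The measure was the root-mean-square difference of log2(RPKM + 1), centred on each gene's mean, over 6 libraries, and it was 0.015, 0.025, 0.029, 0.033 and 0.033. The nearest, egal-1, stood at 46.1, 53.98 and 45.6 RPKM under rab-11.1 RNAi, against 33.4, 33.3 and 31.8 RPKM with the empty vector. Of the 9 genes themselves vps-22 was the nearest to their mean profile, at 0.075, and vps-28 the farthest, at 0.392. The mean profile was 0.24, 0.42 and 0.17 in the rab-11.1 RNAi libraries and -0.24, -0.26 and -0.32 in the empty vector libraries.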

How the data were processed

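Polyadenylated RNA of whole worms was sequenced in 6 libraries. Values for 46739 features are RPKM as deposited by the authors, made from paired reads per the file headers on WBcel235, the build named in the submitters' processing notes. How reads were aligned, counted and assigned to strands is not given in the labels or headers. Ensembl release 115 matched 41597 names as symbols and 3239 as sequence names, and 1903 had no match.

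Library depth was recovered from the RPKM steps of features with few reads. Member reads were taken at the length that gave whole reads in all 6 libraries (tolerance 0.005 reads) and lay nearest to the annotated exon length, a choice that is not unique. The 13833 features that reached 1 RPKM in 3 or more libraries were fitted on log2(RPKM + 1) with limma 3.58.1 in R 4.3.3, with group as the only term, trend and robust eBayes, two-sided tests and Benjamini-Hochberg adjustment over all features tested, with a call at an adjusted p under 0.05. The script was tested on simulated data. With 3 libraries a group, exact permutation p values have a floor of 0.1, so none was computed. The labels call the replicates biological but do not say how the cultures were separated, so the p-values measure the spread between these libraries.

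The members and all lists were chosen with earlier results of these data known. Named were rab-11.1, the 9 members, up to 4 genes with the smallest p from each of 4 pathway lists, and the 5 protein-coding genes outside the lists, at a mean of 5 RPKM or more, with the library profile nearest to the mean profile of the members. Neighbouring genes, vps-20, wwp-1, sli-1, rme-2 and the tissue marker genes named were chosen after their values were seen. The replicate numbers entered the fits only as a block in alternative settings. Deviations from the group means correlated across tested features at 0.399, 0.619 and 0.353 for replicates 1, 2 and 3, all above 0.1. The crossed pair of the library labelled as rab-11.1 RNAi replicate 3 and empty vector replicate 1 was at 0.457. That of rab-11.1 RNAi replicate 1 and empty vector replicate 3 was at 0.178. These correlations do not settle the pairing, and the calls as reported do not use it. Alternatives were 2 other pseudocounts, 2 other filters, 2 scalings, eBayes without trend and robust settings, the replicate block, leaving out each library, and the block without both replicate 3 libraries. Promoter and protein sequences were not analysed here.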

Additional observations from a re-analysis of the deposited data

How the results depend on the processing

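Over all features tested, 1097 were called higher and 148 lower. With median-of-ratios scaling the counts were 552 and 285 (65.9% of calls higher, against 88.1%), and with quantile normalization 524 and 249 (67.8%). The replicate block gave 2288 higher and 618 lower and left the member calls as they were, at 7. With no filter 97 were lower, and without the trend and robust settings 96. Leaving out 1 library gave 264 to 938 higher and 20 to 125 lower, and 0 to 5 members higher. Member calls numbered 3 with either scaling, 4 without trend and robust settings, and 3 with the block when neither replicate 3 library was used. Their median log2 fold change was 0.30 and 0.29 with median-of-ratios scaling and quantile normalization, at which vps-36 was at -0.002 and -0.018. The ESCRT-III list had 5 to 7 genes higher when 1 library was left out. The target gene rab-11.1 ran from -1.49 to -0.39 when 1 library was left out and was -1.48, past the threshold, with the block when neither replicate 3 library was used. The other pseudocounts and the stricter filter changed no call of the 9 genes. The cause of these shifts was not tested. Depth was recovered from the RPKM steps, and counting error does not cover differences between cultures.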

Other observations

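Each early ESCRT gene lies within 1 kb of another protein-coding gene or overlaps one. The values of these neighbours were read after those of the members were known. Of 14 such neighbours 2 were called higher and 0 lower, against 7.93% higher among all tested features. The gene ced-10, for a Rac GTPase, begins 103 bases downstream of tsg-101 on the same strand and had a log2 fold change of 0.47 (limma adjusted p = 0.0411), beside 0.41 for tsg-101. The ubiquitin-conjugating enzyme gene ubc-14, on the opposite strand 741 bases downstream of vps-28, was at 0.36 (limma adjusted p = 0.0311), beside 1.26 for vps-28, and eipr-1, 346 bases upstream of vps-28 on its strand, was at 0.29 and did not pass (limma adjusted p = 0.199). The gene glrx-22, 140 bases downstream of hgrs-1 on the same strand, was at 0.28 and did not pass (limma adjusted p = 0.0579), beside 0.42 for hgrs-1.

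Other close neighbours on the same strand did not pass. The gene mrpl-48, for a mitochondrial ribosomal protein and 93 bases downstream of vps-37, stood at 36.4 ± 0.374 RPKM under rab-11.1 RNAi and 35.0 ± 0.776 RPKM with the empty vector (SD, n = 3 each; log2 fold change 0.06, limma adjusted p = 0.622), beside 0.85 for vps-37. C27F2.4, 33 bases downstream of vps-22, was at -0.06 (limma adjusted p = 0.682), beside 0.42. The gene pigt-1, 109 bases downstream of vps-36, was at 0.08 (limma adjusted p = 0.54), beside 0.12. On the opposite strand tyr-4, which overlaps stam-1, was at 0.85 and did not pass (limma adjusted p = 0.0961), beside 0.45. The differences between a member and its neighbour were not tested.

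Among 10 tested genes for endocytic cargo receptors 0 were called in either direction by limma (median log2 fold change 0.23). At an unadjusted limma p under 0.05, 2 were higher and 0 lower, with the share of all tested features not computed. With the replicate block sma-6 was called higher (adjusted p = 0.0307) and rme-2, for the yolk receptor, lower (log2 fold change -0.54, adjusted p = 0.0387), and with the filter of 5 RPKM sma-6 passed (adjusted p = 0.0495). The transforming growth factor beta receptor gene sma-6 stood at 15.3 ± 1.56 RPKM under rab-11.1 RNAi and 11.2 ± 0.514 RPKM with the empty vector (limma adjusted p = 0.06). The values of lrp-1, a megalin homologue, were 28.02 ± 2.27 RPKM under rab-11.1 RNAi and 23.3 ± 0.976 RPKM with the empty vector (limma adjusted p = 0.118), those of the epidermal growth factor receptor gene let-23 were 7.32 ± 0.325 RPKM under rab-11.1 RNAi and 6.0 ± 0.401 RPKM with the empty vector (limma adjusted p = 0.225), and those of cav-2, for a caveolin, were 5.51 ± 2.25 RPKM under rab-11.1 RNAi and 3.59 ± 0.965 RPKM with the empty vector (limma adjusted p = 0.369).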
